A study of Caenorhabditis elegans with 4 samples.

Results

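The C-type lectin genes of C. elegans were taken as the genes of the count table whose WormBase symbol starts with clec-. They number 240 of the 20392 genes in the table, and 82 of them had a count sum of at least 40 over the 4 libraries. The rule uses the gene name and no measured value. All 240 are annotated as protein coding in Ensembl release 115, and the presence of a lectin domain in each product was not checked here.

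C-type lectin-like domains are a protein fold that in many family members binds carbohydrates with the help of calcium. In nematodes the family is very large, and many of its products are predicted to be secreted. Several clec genes are known as infection response genes of the intestine, where they are regarded as recognition or effector molecules of innate immunity, and others are expressed in the germline, the nervous system or other tissues. CeLIN41, the protein used as bait, is a TRIM-NHL protein that acts in the developing soma and in growing oocytes, where it associates with specific mRNAs.

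In the RIP-seq experiment, RNA recovered with CeLIN41 (IP) was compared with RNA of the same lysate (Input), to ask which mRNAs are enriched in the IP. Both groups came from whole young adult worms that carried lin-41(rrr3) on chromosome I and, on chromosome II, the single-copy rescuing transgene rrrSi367, which expresses FLAG-GFP-TEV-LIN-41 from the lin-41 promoter with the full-length lin-41 3′-UTR and an unc-119(+) marker. Each of the 2 biological replicates, grown in different weeks, gave 1 Input and 1 IP library, with 33455857 to 40743247 counts per library. A mock IP was not analysed here, so mRNAs bound by the beads or the tags cannot be told apart from mRNAs bound by CeLIN41, and in whole worms fewer cells of a type cannot be told apart from less RNA per cell.

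Log2 IP enrichment was obtained by subtracting the normalized log2 Input value from the IP value of its replicate, computed as in the Methods of the study (library size scaling, a pseudocount of 8, quantile normalization). It is given as mean ± SD over the 2 replicates. The counts of IP and Input were also tested by edgeR (quasi-likelihood, replicates as blocks), fitted over all 14029 genes that passed its filter on low counts, and the terms enriched and depleted refer to this test at an adjusted p of 0.05 (Benjamini-Hochberg over all tested genes). Both measures describe a gene relative to the rest of its library.

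Most of the C-type lectin mRNAs with at least 40 counts were close to the genes of like input, and a small set lay well above them. Among the 82 members with at least 40 counts, the mean log2 IP enrichment had a median of 0.022 and quartiles of -0.40 and 0.43, compared with a median of -0.10 and quartiles of -0.70 and 0.53 for the 13694 genes with at least 40 counts. Each member was also set against the median of all other genes whose mean normalized input lay within 0.5 log2 units. The difference had a median of 0.060 and quartiles of -0.32 and 0.41, with 44 members above and 38 below the genes of like input. In 8 members the difference was above 1, and in 1 member, clec-1, it was below -1. The share of other genes that lay so far from their own like input was not counted. For scale, at a normalized input of 5 the other genes had a median of -0.071 and a 95th percentile of 1.57.

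Of the 240 members, 89 passed the filter and were tested and 151 were not. Among the 89 tested, 11 (12.4%) were enriched and 28 (31.5%) were depleted, compared with 32.9% and 35.4% of all tested genes (68.2% in either direction). Because a gene can pass the filter through the group in which it is high, these counts do not describe the 151 others. The median log2 fold change was -0.20 for the tested members and -0.14 for all tested genes. The number of depleted members depended strongly on the test. DESeq2 fitted 192 members and called 6. Some of the 192, such as clec-61, had no adjusted p, and the number with one was not obtained. The share of all genes, 22.5%, counts only genes with an adjusted p. An edgeR fit scaled by library size only called 61 of 89 members, compared with 66.5% of all tested genes. Each edgeR fit without 1 library called fewer members than the main fit, and also a smaller share of all tested genes. Under library size scaling the median log2 IP enrichment of all genes with at least 40 counts also shifted, from -0.10 to -0.91. DESeq2 called 8 members enriched, compared with 29.6% of all genes with an adjusted p. Library size only called 7, compared with 11.9% of all tested genes. Each fit without 1 library called fewer members enriched than the main fit, and again a smaller share of all tested genes.

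**Figure D1:**
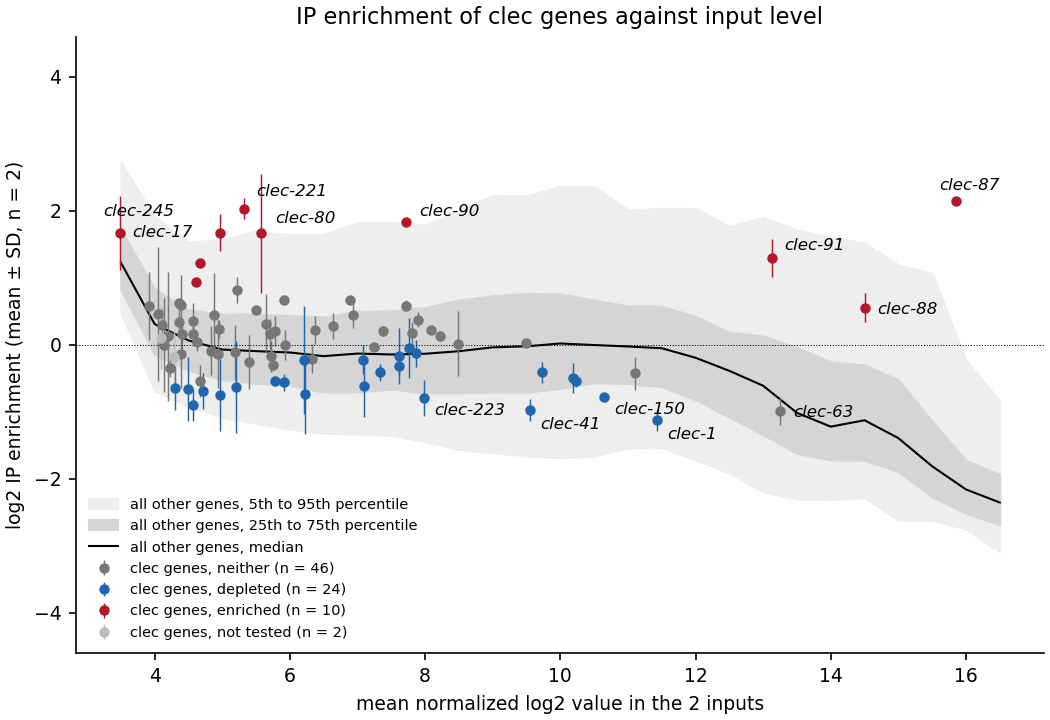
Mean log2 IP enrichment (points, with SD over 2 replicates as bars) against the mean normalized log2 value in the 2 inputs for the 82 clec genes with at least 40 counts, coloured by the edgeR call. Grey bands and the black line show the percentiles and the median of all other genes in windows of the same input; clec-87 at 2.15 lies far above the genes of like input, whose median was -2.08.

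The genes clec-87, clec-88 and clec-91 held most of the C-type lectin counts and were the most abundant members per length in the inputs. All 3 were enriched in the IP. Together, clec-87, clec-88 and clec-91 took 74.0% and 77.8% of all member counts before and 97.1% and 97.4% after the IP, whereas all other members together made up 0.0940% and 0.0765% of the Input libraries and 0.0420% and 0.0344% of the IP libraries. On the opposite strand clec-87 overlaps iars-2, with 2457 and 2875 Input counts and 1036 and 880 IP counts, and clec-88 overlaps ctsa-4.1 on the same strand, with 72 to 124 counts per library. Both partners had far fewer counts than the clec genes.

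The gene clec-87 (WBGene00007709, chromosome I) had 61109 (replicate 1) and 68380 (replicate 2) Input counts and 508484 and 474815 IP counts. Both IPs were far above both inputs, and the replicates lay close together. Its share of the library was 0.183% (95% Wilson interval 0.181% to 0.184%) and 0.176% (0.175% to 0.177%) before the IP, and 1.29% (1.286% to 1.293%) and 1.17% (1.162% to 1.169%) after it. Such intervals hold the counting error alone. The log2 IP enrichment of clec-87 was 2.16 and 2.14, the highest mean of the members at 2.15 ± 0.015 (SD, n = 2), and the edgeR log2 fold change came to 3.71 ± 0.27 (SE, adjusted p = 1.61e-40). Quantile normalization set both IPs of clec-87 to 18.0006, so the SD of 0.015 does not hold the difference between its IP counts. The measures differ in their scaling: the mean log2 IP enrichment was 2.77 with library size only and 3.71 with TMM factors. Per library size alone the IP to Input ratio was 7.06 and 6.63. Of the 71 other genes of like input, 69 had a lower enrichment and 2 a higher one, and their median was -2.08. The difference of 4.23 from that median was the largest among the members.

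For clec-91 (WBGene00014117, chromosome I), 8015 and 9345 Input counts stood against 19890 and 24936 IP counts. The inputs agreed closely per library size, and the IPs lay further apart, with replicate 2 higher. Its log2 IP enrichment was 1.09 and 1.50 (mean 1.29 ± 0.29), and the edgeR log2 fold change came to 2.15 ± 0.14 (SE, adjusted p = 9.14e-51). The genes of like input had a median of -0.68, and 602 of these 646 were lower than clec-91.

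The gene clec-88 (WBGene00019606, chromosome II) had 20603 and 26422 Input counts and 34906 and 32298 IP counts. Here the separation was smaller: the IP to Input ratio per library size was 1.44 in replicate 1 (exact 95% binomial interval 1.41 to 1.46) and 1.17 in replicate 2 (1.15 to 1.19), compared with 7.06 and 6.63 for clec-87. Log2 IP enrichment of clec-88 was 0.71 and 0.40 (mean 0.55 ± 0.22), and the edgeR log2 fold change came to 1.31 ± 0.15 (SE, adjusted p = 2.34e-17). With library size only, the adjusted p of clec-88 was 0.0732, so that its call rests on scaling for library composition. Against the genes of like input, with a median of -1.13, it was 1.68 higher. Of the 10 markers of germline and oocytes, 9 were enriched in edgeR, at a median log2 fold change of 1.24 over the list, and glh-1 was depleted (-1.15). Mean log2 IP enrichment was below 0 for glh-1 (-1.83), pgl-1 (-0.28) and puf-5 (-0.092). Their summed share was 0.644% and 0.675% of the input counts for the whole list, and 1.47% and 1.44% of the IP counts. Of that list, mex-3 alone had 19203 and 25536 Input counts and 188296 and 220527 IP counts. The part of tissue of origin in the enrichment of the clec genes was not tested.

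Below these 3 genes, the most abundant members were not enriched. Levels per length in the inputs (counts per kilobase of gene model per 1000000 library counts, mean ± SD, n = 2) were 1592 ± 42.9 for clec-87, 567 ± 39.4 for clec-88, 290 ± 0.613 for clec-91, 201 ± 46.3 for clec-63 and 92.0 ± 20.6 for clec-1. They were followed by 65.8 for clec-50 (77.1 and 54.5 in the replicates), 45.0 ± 0.797 for clec-150 and 41.9 ± 2.68 for clec-266. In this order clec-1 and clec-50 differed by less than the sum of their SDs, as did clec-150 and clec-266, and each other neighbour differed by more. In the IPs the level of clec-87 reached 10901 ± 779, while those of clec-63, clec-1, clec-50, clec-150 and clec-266 were lower than in the inputs, at 91.4 ± 16.6, 29.1 ± 8.20, 33.9 ± 7.36, 16.5 ± 1.90 and 17.3 ± 1.54. These levels are scaled by library size only.

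**Figure D2:**
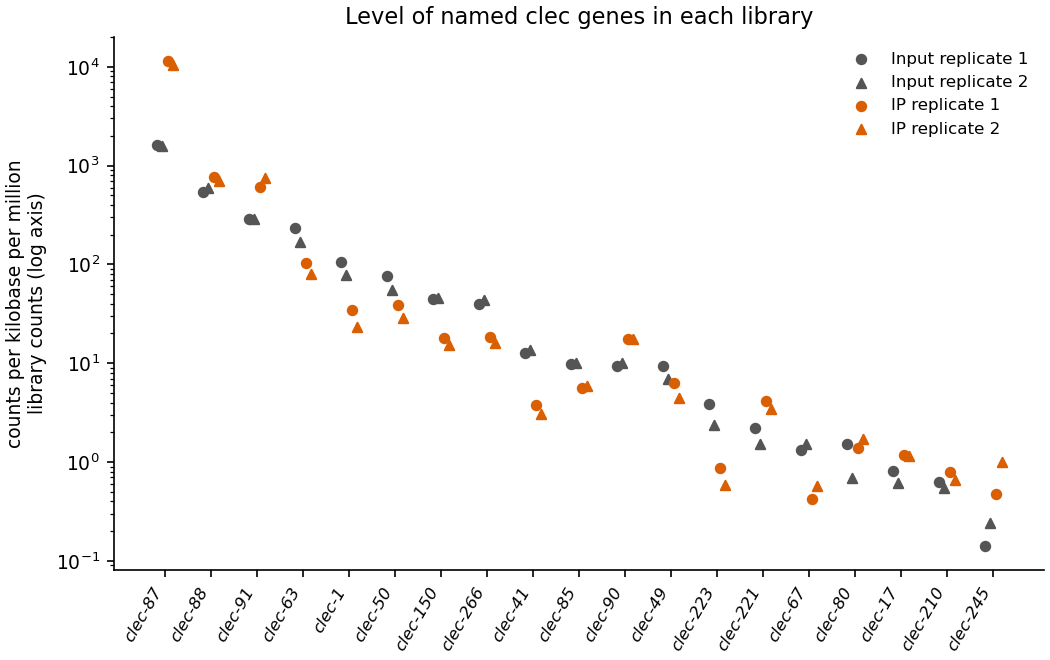
Level of 19 named clec genes in each of the 4 libraries, in counts per kilobase of gene model per 1000000 library counts on a log axis, ordered by the mean of the inputs (grey) with the IPs in orange. The IP points of clec-87 (11452 and 10350) lie above its input points (1622 and 1561), whereas those of clec-1 (34.9 and 23.3) lie below its inputs (107 and 77.4).

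Some members of low abundance were also enriched. The gene clec-90 (WBGene00019009, chromosome I) had 264 and 328 Input counts and 577 and 590 IP counts, with nearly equal replicates in each group. Its log2 IP enrichment was 1.84 and 1.82 (mean 1.83 ± 0.012), and the edgeR log2 fold change came to 1.77 ± 0.14 (SE, adjusted p = 2.79e-36). The genes of like input had a median of -0.14, and 64 of 1239 were higher than clec-90. On the same strand clec-90 overlaps glo-2, which had only 10 and 14 Input counts and 25 and 12 IP counts.

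For clec-221 (WBGene00008916, chromosome V), 51 and 41 Input counts stood against 112 and 95 IP counts, so both IPs were above both inputs. The log2 IP enrichment was 1.92 and 2.14 (mean 2.03 ± 0.16), with a log2 fold change of 1.94 from edgeR (standard error 0.27, adjusted p = 1.62e-12). The IP to Input ratio per library size was 1.86 (exact 95% interval 1.33 to 2.65) and 2.21 (1.52 to 3.27). On the opposite strand clec-221 overlaps F17C11.4, which is more abundant, with 2074 and 2360 input counts, and had a mean log2 IP enrichment of -0.32. No source used here says whether strand was used in the counting.

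The gene clec-17 (chromosome I) had 35 and 31 Input counts and 60 and 61 IP counts, with log2 IP enrichments of 1.48 and 1.87 (mean 1.68 ± 0.27, edgeR adjusted p = 2.05e-06). Its IP to Input ratio per library size was 1.45 in replicate 1 (exact 95% interval 0.943 to 2.27, which includes 1) and 1.88 in replicate 2 (1.20 to 2.99). Counts of clec-80 (chromosome IV) were 77 and 41 before and 84 and 106 after the IP. The replicates of clec-80 differed, at log2 IP enrichments of 1.04 and 2.29 (mean 1.66 ± 0.88, edgeR adjusted p = 4.22e-08), and per library size its level in the IP of replicate 1 did not exceed that in the Input (ratio 0.926, exact 95% interval 0.671 to 1.28). At the lowest counts of this set, clec-245 (chromosome V) had 3 and 6 Input counts and 12 and 26 IP counts, with log2 IP enrichments of 1.27 and 2.06 (edgeR log2 fold change 2.85, standard error 0.65, adjusted p = 1.82e-05). The genes of like input had a median of 1.27, close to its own 1.67 ± 0.56, and genes with so few input counts can reach the minimum of 40 only with counts of the IP. The call of clec-245 was lost without IP replicate 2 (adjusted p = 0.113).

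In clec-210 (chromosome V), 25 and 25 Input counts stood against 37 and 32 IP counts, at a mean log2 IP enrichment of 1.23 ± 0.0031 (edgeR adjusted p = 0.00414). Per library size its IP to Input ratio was 1.26 (exact 95% interval 0.736 to 2.18) and 1.22 (0.702 to 2.15), so both intervals include 1. The clec-210 call was lost in 6 of 10 alternative fits, among them DESeq2 and library size only. Of the 11 enriched members, 6 stayed enriched in each of 10 alternative fits: clec-87, clec-91, clec-90, clec-221, clec-17 and clec-80. The genes clec-88 and clec-245 each lost the call in 1 fit, and clec-210, clec-104 and clec-246 in 6 or more. How many of all enriched genes kept their call in these fits was not counted.

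The members with the lowest enrichment included clec-1 and clec-41. The gene clec-1 (WBGene00017772, chromosome V) had 3267 and 2758 Input counts and 1260 and 869 IP counts. Both IPs were below both inputs. Its log2 IP enrichment of -1.24 and -1.02 (mean -1.13 ± 0.16) was the lowest mean of the members, and the edgeR log2 fold change came to -0.74 ± 0.10 (SE, adjusted p = 2.01e-12). The difference from the genes of like input was -1.07, and 175 of 1651 such genes were lower. It was the only member at least 2-fold depleted in both replicates, compared with 12.7% of all genes with at least 40 counts, whereas 8 members were at least 2-fold enriched in both, compared with 12.05% of all genes. With TMM factors in place of quantile normalization no member was 2-fold depleted in both replicates, compared with 12.2% of all genes. With library size only 28 were, compared with 39.5% of all genes.

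The gene clec-41 (WBGene00007153, chromosome V), which is known for a part in the defence against Bacillus thuringiensis, had 837 and 1055 Input counts and 293 and 245 IP counts. The groups were well separated, at log2 IP enrichments of -0.85 and -1.09 (mean -0.97 ± 0.17, edgeR log2 fold change -1.03, standard error 0.13, adjusted p = 4.47e-14). Its annotated 3′-UTR of 1042 bases is the longest among the tested members. For clec-223 (chromosome V), 413 and 296 Input counts stood against 109 and 77 IP counts, at a mean log2 IP enrichment of -0.80 ± 0.26 (edgeR adjusted p = 6.34e-10). For clec-150 (chromosome III) 1693 and 2018 Input counts stood against 801 and 703 IP counts, at a mean log2 IP enrichment of -0.78 ± 0.047 (adjusted p = 3.93e-06 from edgeR).

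Of the 28 depleted members, 5 stayed depleted in each of the 10 alternative fits: clec-1, clec-41, clec-97, clec-150 and clec-223. The other 23 lost the call in at least 1 fit, and the same count was not made for all depleted genes. Of the 24 depleted members with at least 40 counts, 20 had a log2 IP enrichment below 0 in both replicates, and the enrichment of the other 4 (clec-51, clec-62, clec-86 and clec-166) had opposite signs. Several of the lowest means belonged to genes of few counts, such as clec-79 with 25 and 20 Input counts and 3 and 3 IP counts (mean -0.90 ± 0.23, edgeR adjusted p = 0.00411). Similarly, clec-190 had 47 and 23 counts compared with 8 and 6 (adjusted p = 0.00824 from edgeR). Below the minimum of 40 counts, clec-165 had 16 and 18 compared with 4 and 0, and clec-170 had 18 and 15 compared with 4 and 1. DESeq2 called none of clec-79, clec-190, clec-165 and clec-170.

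The abundant members clec-63 and clec-50 show how the 2 measures can differ, and clec-266 how a call can depend on the fit. The counts of clec-63 (chromosome II) were 10303 and 8627 before and 5351 and 4268 after the IP. Its log2 IP enrichment was -1.14 in replicate 1 and -0.84 in replicate 2. However, genes of like input had a median of -0.76, and edgeR did not call clec-63 (log2 fold change -0.20, standard error 0.11, adjusted p = 0.0987). It was called depleted with library size only (-1.13, adjusted p = 8.79e-10) and with at least 10 counts in every library (-0.29, adjusted p = 0.00947). For clec-50 (chromosome V), 2691 and 2212 input counts and 1610 and 1221 IP counts gave a mean log2 IP enrichment of -0.42 ± 0.24, and a log2 fold change of -0.019 that was not called (edgeR adjusted p = 0.876). With library size only it was -0.95 (adjusted p = 4.92e-08). The gene clec-266 (chromosome X) had 1257 and 1600 compared with 680 and 619 counts, a mean of -0.54 ± 0.090 and a log2 fold change of -0.35 (edgeR adjusted p = 0.00372). Its call was lost in DESeq2 and without Input replicate 2 or IP replicate 1.

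Members known from infection studies were not enriched in the IP, and most were scarce in these worms, which were fed E. coli OP50. The gene clec-85, induced in the intestine by Pseudomonas aeruginosa through p38 MAP kinase signalling, had 304 and 357 Input counts and 203 and 219 IP counts, at a log2 IP enrichment of 0.37 ± 0.12 and a log2 fold change of 0.14 (edgeR adjusted p = 0.446). The gene clec-67, which responds to the same pathogen, had 91 and 123 compared with 34 and 48 counts (-0.21 ± 0.22, edgeR adjusted p = 0.0505). The gene clec-49, implicated in the defence against Serratia marcescens, had 9.35 and 6.93 counts per kilobase per 1000000 library counts in the Input and 6.33 and 4.49 in the IP (0.59 ± 0.084, edgeR adjusted p = 0.0532). Against the genes of like input, clec-85 was 0.53 and clec-49 was 0.73 higher. The log2 fold change of clec-85 became -0.80 with library size only (edgeR adjusted p = 6.85e-05). That of clec-49, 0.34, became 0.42 with RLE size factors (edgeR adjusted p = 0.0182) and -0.59 with library size only (adjusted p = 0.00327). The related clec-39 had no counts in any library, which allows at most 3 counts each, or 0.0736 to 0.0897 counts per 1000000 library counts.

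The genes clec-60 and clec-61, which respond to infection with Gram-positive bacteria, were both scarce. The gene clec-60, with 17 and 9 Input counts and 9 and 2 IP counts, was not tested. The gene clec-61 had 10 and 13 Input counts and 6 and 0 IP counts and was not called (edgeR adjusted p = 0.154). For clec-4, another gene with a part in the defence against Bacillus thuringiensis, 27 and 40 input counts and 19 and 19 IP counts gave an edgeR log2 fold change of -0.014 ± 0.44 (SE, adjusted p = 0.978). The gene clec-42 had 3 to 5 counts in each library, and clec-38, which acts in axon guidance, had none in the inputs and 1 in each IP.

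Of the other members that the naming rule listed, clec-7 (86 and 48 compared with 33 and 20 counts, edgeR adjusted p = 0.141) and clec-186 (296 and 330 compared with 164 and 174, adjusted p = 0.587) were not called. The gene clec-160 was depleted, with 125 and 76 Input counts and 25 and 24 IP counts (edgeR adjusted p = 0.00022), but its call was lost in DESeq2 and without Input replicate 1. The gene clec-71 was also depleted, at 9 and 20 compared with 2 and 2 counts (edgeR adjusted p = 0.0249). It lost its call in DESeq2, without a filter, and without either IP.

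The 158 members below 40 counts were the larger part of the family. Of these, 48 had no count in any library. The other 110 held 1 to 39 counts each, and together 481 and 487 Input counts and 244 and 192 IP counts. In the inputs 24 and 25 of these 110 were at 0, and in the IPs 37 and 45 were. Across the table, 67.2% of all genes reached 40 counts, compared with 34.2% of the members. The members that did had a median count sum of 204.5, compared with 1457.5 for all genes with at least 40 counts. Just inside the minimum were clec-74, clec-73, clec-89 and clec-238 with 40 counts each, at mean log2 IP enrichments of -0.0065, -0.35, -0.65 and 0.58. Just outside were clec-72 with 39 counts at -0.33, and clec-139, clec-165 and clec-170 with 38 counts each, at 0.18, -0.96 and -0.79.

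**Figure D3:**
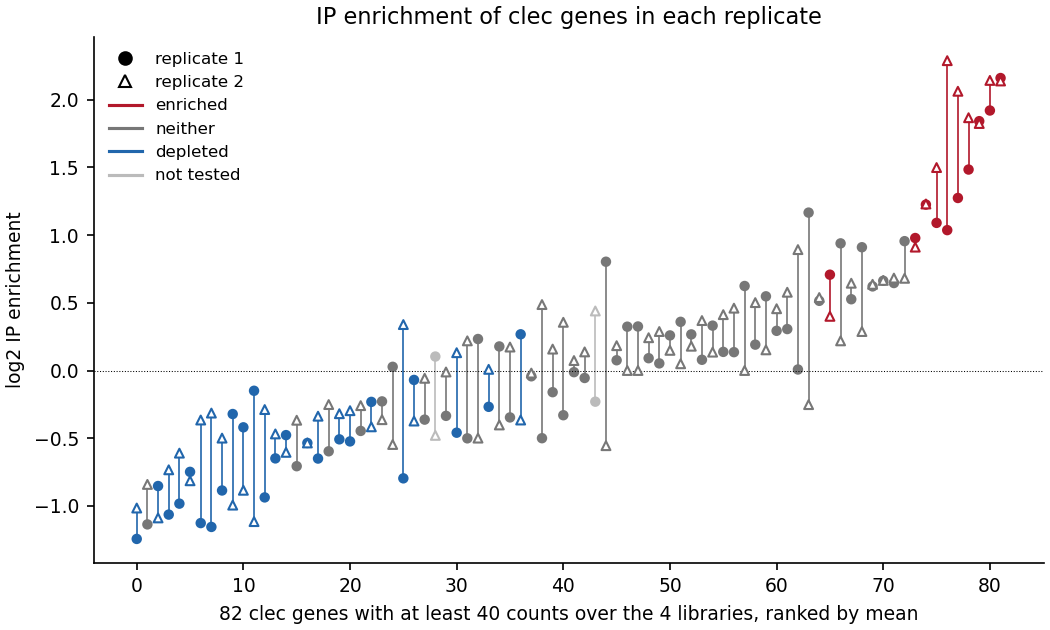
Log2 IP enrichment of the 82 clec genes with at least 40 counts in replicate 1 (filled circles) and replicate 2 (open triangles), ranked by their mean and coloured by the edgeR call. Both replicates of the 10 enriched genes lie above 0, and 18 genes have replicates on both sides of 0.

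The median size of the difference between the replicates in log2 IP enrichment was 0.31 for the 82 members and 0.19 for all genes with at least 40 counts. It was 0.23 for the 29 members with a mean normalized input of at least 7 and 0.33 for the 53 below it. In 18 of the 82 members the replicates had opposite signs, compared with 12.5% of all genes with at least 40 counts. Across the 82 members the enrichments of the replicates had a Pearson r of 0.77 and a Spearman rho of 0.68. These are given as a description, since the genes share their libraries. The inputs themselves differed between the weeks for some members. Among the 29 members of higher input, the ratio of Input replicate 1 to Input replicate 2 per library size ran from 0.592 for clec-86 to 1.62 for clec-223, with a median of 1.12, compared with 0.994 for the 8531 genes of the same minimum.

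Calls were also read by input level, since both the test and the enrichment depend on it. Of the 37 tested members with a mean normalized input from 3 to 5, 5 (13.5%) were enriched and 9 (24.3%) depleted, compared with 14.95% and 17.7% of all tested genes of that level. From 5 to 7, 2 of 23 members (8.70%) were enriched and 5 (21.7%) depleted, compared with 15.1% and 40.4%. From 7 to 9, 1 of 17 members (5.88%) was enriched and 8 (47.1%) depleted, compared with 26.8% and 51.02%. From 9 to 11, none of 6 members was enriched and 5 (83.3%) were depleted, compared with 49.9% and 32.8% of all genes. Above 11, where clec-87, clec-88 and clec-91 lie, 3 of 6 were enriched and 1 was depleted, compared with 52.1% and 33.9%. No test of these shares was made, and the bins of 6 members are small.

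C-type lectin genes lie in tandem in many places of the genome, and 125 of the 240 stood next to another member in the order of coding genes, in 41 runs of 2 to 13 genes. Genes of a run did not share their level or their enrichment in each case. In the run of clec-62, clec-63, clec-64, clec-65 and clec-66 on chromosome II, the 4 members with at least 40 counts had input levels from 5.15 to 201 counts per kilobase per 1000000 and mean log2 IP enrichments from -0.99 to 0.20. Next to clec-41 (-0.97) stands clec-225, at 0.53, and next to clec-223 (-0.80) stands clec-222, at 0.13. In contrast, the 5 genes of the run clec-57, clec-227, clec-56, clec-54 and clec-55 on chromosome V were all uncalled. Their input levels ran from 0.468 to 3.85 counts per kilobase per 1000000, and their means from -0.0010 to 0.45. The run of 13 genes from clec-40 to clec-33 on chromosome V had only 3 members with at least 40 counts. No source used here says how reads shared by several genes were assigned, so the values of close paralogs within a run are uncertain.

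By chromosome, the enriched members were 5 of 10 tested on chromosome I (clec-17, clec-87, clec-90, clec-91 and clec-104), 4 of 28 on V, 1 of 18 on II and 1 of 26 on IV. Of all tested genes, 38.1% were enriched on I, 27.2% on V, 34.9% on II and 33.8% on IV. The depleted members were 12 of 26 tested on IV, 5 of 18 on II, 4 of 28 on V, 3 of 10 on I, 2 of 4 on III and 2 of 3 on X. The corresponding share of all tested genes lay between 33.1% on III and 40.1% on X. With so few members on a chromosome, no difference from all genes was tested. The median log2 IP enrichment of the members with at least 40 counts was 0.70 on chromosome I and between -0.50 and 0.22 on the others. The longest annotated 3′-UTR had a median of 96 bases in the 11 enriched members, 73 bases in 26 depleted members and 56 bases in 47 uncalled ones, compared with 147 bases in 13139 tested genes with such an annotation and 189 bases in those enriched. Of the 8 members with at least 40 counts and a 3′-UTR of 300 bases or more, 3 (clec-80, clec-88 and clec-90) were enriched and 2 (clec-41 and clec-266) were depleted, compared with 42.1% and 31.95% of the 3014 tested genes with such a 3′-UTR. Across 79 members the Spearman rho of 3′-UTR length and mean log2 IP enrichment was -0.15, as a description over genes of the same libraries. Coding lengths had medians of 699 bases in the enriched and 1017 bases in the depleted members, compared with 1080 bases in all tested genes.

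Other families of secreted effectors and lectins were read from the same fit, in which 32.9% of all tested genes were enriched and 35.4% depleted. Of 9 tested lysozyme genes (lys and ilys), whose products digest bacterial walls, none was enriched and 4 were depleted, with a median log2 fold change of -0.23. Of 18 tested saposin-like genes (spp), which include pore-forming antimicrobial proteins, 1 was enriched and 13 were depleted, with a median of -0.74. Of the 12 galectin genes (lec-1 to lec-12), which encode lectins of another fold that bind galactosides, none was enriched and 9 were depleted, with a median of -1.23. For the tested clec genes the corresponding median was -0.20. Of 20 genes of innate immune signalling, 8 were enriched and 9 depleted, with a median of -0.04. Of its genes of the p38 pathway, the adaptor tir-1 and the kinase pmk-1 had edgeR log2 fold changes of -0.14 and 0.11 and were not called (adjusted p = 0.278 and 0.539). The kinases nsy-1 and sek-1 and the transcription factor atf-7 were enriched, at log2 fold changes of 0.31, 0.36 and 1.39 (edgeR adjusted p = 0.00762, 0.00139 and 8.64e-25, respectively).

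Tissue markers were read in the same way. Of 9 intestine markers 8 were depleted and none was enriched, with a median log2 fold change of -0.96, and their summed share was 0.505% and 0.350% of the input counts and 0.161% and 0.109% of the IP counts. Among 8 tested sperm markers 6 were depleted and 1 was enriched, at a summed share of 0.00286% to 0.00412% in the inputs and 0.00124% to 0.00188% in the IPs. Of 5 muscle markers, 4 were depleted and 1 was enriched. In the hypodermis list 2 of 6 tested were enriched and 1 depleted, among neurons 2 of 7 were enriched and 3 depleted, and in the pharynx 1 of 4 was enriched and 2 were depleted. All of the lists except those of sperm and hypodermis had every marker of the table above 40 counts. The tissue in which each clec gene was expressed was not measured, and the part of tissue of origin in the depletion of members was not tested.

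**Figure D4:**
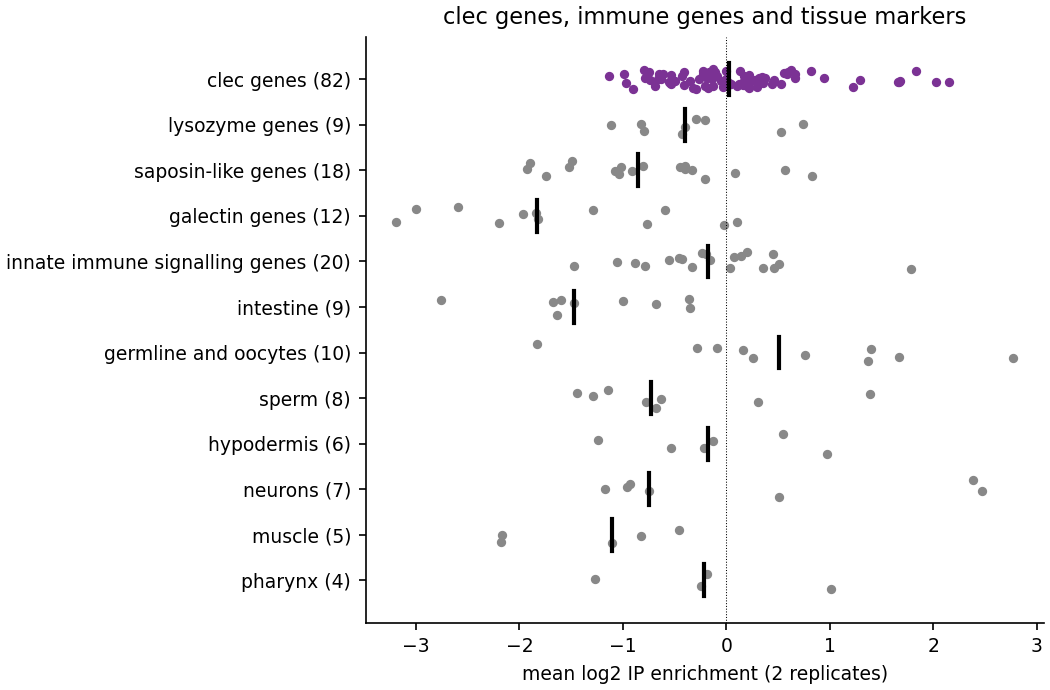
Mean log2 IP enrichment of single genes with at least 40 counts (points) and the median of each list (black bars), for clec genes in purple and other immune gene lists and tissue markers in grey, with the number of genes in brackets. The median was 0.022 for the clec genes, -1.83 for the galectins, -1.47 for the intestine list and 0.51 for the germline and oocyte list.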

How the data were processed

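Per the paper's methods, the authors quantified genes on assembly ce10 with WormBase WS220 gene models. No source used here names the aligner or the counting tool. They deposited read counts per gene, not normalized, for 2 Input and 2 IP libraries (33455857 to 40743247 counts). A second deposited table holds log2 values, which the authors scaled by library size, log2-transformed with a pseudocount of 8 and quantile-normalized. Repeating these steps on the counts gave values within 1e-06 of theirs.

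Members were matched by WormBase identifier to current symbols, which 19182 of 20392 genes had. Chromosomes, gene order and UTR lengths came from Ensembl release 115 (WBcel235). That assembly is later than ce10, so no coordinates are given, and sequences were not used here.

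IP and Input were compared on all counts in R 4.3.3 with edgeR 4.0.16 (TMM scaling, filterByExpr, replicate as a block). The pairing follows the paper, which subtracts each input from its respective IP. Across 14029 genes the difference between replicates in the inputs correlated with that in the IPs (r = 0.286). The blocked model left 1 residual degree of freedom, so the spread was pooled over all genes, at a dispersion of 0.00612, and adjusted p-values rest on the assumption of a shared spread. Standard errors of log2 fold changes were derived from the F statistic. Counting intervals are exact binomial or Wilson intervals and cover counting error only. The scripts were tested on simulated data. DESeq2 1.42.0 and other scalings, filters, windows and left-out libraries were alternatives. A fit without 1 library has no block, since 3 libraries leave it no residual degree of freedom. Python 3.11.15, pandas 2.3.3, scipy 1.17.1 and matplotlib 3.10.9 were used elsewhere.

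The members, gene lists and tests were chosen with earlier results of these data known. Genes named with full values are the 8 highest and 8 lowest mean IP enrichments among called members with the same sign in both replicates, the 8 of highest input per length, and members with a known role. A few others are named for counts of 5 or fewer, for the count minimum or for their place in a run of genes, and were chosen after their values were seen.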

Additional observations from a re-analysis of the deposited data

How the results depend on the processing

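The number of enriched members was 11 (all genes 32.9%). It was 8 with DESeq2 (all genes with an adjusted p 29.6%) and 10 with no replicate block (30.4%). It was 13 with RLE size factors (34.9%) and 7 with library size only (11.9%). When each library was left out in turn it was lower, as was the share of all genes. The number of depleted members was 28. It was 19 with no replicate block, 6 with DESeq2, 61 with library size only, and 8 to 17 when each library was left out. The 6 calls of DESeq2 were all among the 28. Without the block, the pairing was ignored. That fit is among the 10 alternatives, so the 5 depleted and 6 enriched members that kept their call in each kept it here by definition.

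The median log2 IP enrichment of 0.022 (all genes -0.102) moved to -0.956 with library size only (all genes -0.914) and to -0.149 with TMM factors (all genes -0.105). In these 2 settings the members lay below all genes, the reverse of the main order. The median of the members was -0.031 with a minimum of 10 counts (all genes -0.080), and ranged from 0.040 to 0.10 with each replicate alone. The median difference from genes of like input, 0.060, was -0.0011 with a pseudocount of 1, 0.012 with an input window of 0.25 and -0.020 with a minimum of 10 counts, and ranged from 0.060 to 0.10 with each replicate alone, so its sign was not settled. The 8 members at least 2-fold enriched in both replicates (all genes 12.05%) became 2 with library size only (all genes 5.67%), and 8 and 9 with each replicate alone. The 1 member at least 2-fold depleted in both (all genes 12.7%) became 2 with a pseudocount of 1 (all genes 14.8%) and 28 with library size only (39.5%). It became 0 with TMM factors (12.2%), and 3 to 5 with each replicate alone.

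Among the named members, 12 alternative log2 fold changes had the opposite sign, each of a gene that was not called: clec-50 at 0.052 (DESeq2) and 0.065 (RLE), clec-4 at 0.060 (DESeq2) and 0.070 (RLE), clec-49 at -0.59 and clec-85 at -0.80 with library size only, and the others when a library was left out. Over the libraries left out in turn, clec-50 ranged from -0.21 to 0.20, clec-4 from -0.22 to 0.22, clec-85 from -0.035 to 0.28 and clec-186 from -0.27 to 0.021. Of the other alternative fold changes, 223 kept direction and call, 35 lost a call and 11 gained one. The gains were of clec-4, clec-7, clec-50, clec-61, clec-63, clec-67 and clec-186 with library size only, of clec-49 with RLE, of clec-67 with no filter, and of clec-63 and clec-67 with at least 10 counts in every library. The cause of these changes was not tested. The members with at least 40 counts had a median count sum of 204.5, and an effect of depth on the calls was not tested.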
